A study of Mus musculus with 45 samples.

Results

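The 10 genes described here are Foxd3, Pou3f1, Otx2, Fgf5, Pim2, Vrtn, Car14, Sphkap, Epha2 and Enpp2, a set of epiblast genes whose mRNA was low after retinoic acid (RA). They were selected on their fold changes between RA-treated and untreated organoids at 18 h and 30 h, and in Enpp2 at all hours, and were taken by symbol from the 54532 genes of the count table. All 10 were found and had enough counts to be tested in each comparison. RNAseq was performed on organoids of R1, a mouse line of embryonic stem cells, grown clonally in Matrigel in N2B27 medium. The 15 cell populations were day 2 organoids, taken before treatment, and organoids kept untreated or given 250 nM all-trans RA from day 2. These were taken after 8 h, 18 h and 30 h and then every 12 h up to 78 h, and hours are counted from day 2 throughout. Each population had 3 biological replicates, so that n = 3 libraries stands behind every mean. The protocol in the sample labels states the dose in µM and lists somewhat different hours. The dose and hours used here are those of the paper and the sample titles.

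The epiblast is the embryonic layer from which the tissues of the body arise. Embryonic stem cells that leave the naive state pass through a formative and then a primed state that resemble this layer before and after implantation, and factors such as Otx2, Pou3f1 and Foxd3 act in that passage. RA binds nuclear receptors of the RAR family, which sit on DNA at repeats of the core AGGTCA, and it is widely used to drive stem cells out of pluripotency into neural fates.

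The 4 members that encode nuclear factors were Foxd3, Pou3f1, Otx2 and Vrtn. Foxd3 (chr4:99656299-99658622 of GRCm38, plus strand, 1 exon) is a forkhead factor also used in the neural crest. Pou3f1 or Oct6 (chr4:124656807-124660655, plus, 1 exon) is a class III POU factor. Otx2 (chr14:48657677-48673819, minus) is a homeobox factor of the epiblast and later of the forebrain and midbrain, and Vrtn (chr12:84641019-84651455, plus) encodes vertnin, known from studies of vertebral number. Of the signalling members, Fgf5 (chr5:98254184-98277030, plus) is the fibroblast growth factor that marks the primed epiblast. Epha2 (chr4:141301240-141329384, plus) is a receptor tyrosine kinase for ephrin-A ligands. Enpp2 (chr15:54838901-54952892, minus) encodes autotaxin, the secreted enzyme that makes lysophosphatidic acid. Pim2 (chrX:7878262-7883432, plus) is a serine/threonine kinase. Car14 (chr3:95897768-95904691, minus) encodes a membrane-bound carbonic anhydrase, and Sphkap (chr1:83254139-83408200, minus) a protein that binds sphingosine kinase and anchors protein kinase A.

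RefSeq promoter windows of 300 bases (250 before a start site and 50 after it, GRCm38.p6) were given for 8 members in 13 windows. Pou3f1 and Enpp2 had no entry. Exact matches were sought on both strands. AGGTCA, the core of RAR sites, stood in 2 of the 13 windows (Epha2 and Vrtn), and in 16.3% of all 32851 windows. TAATCC, a site of OTX-type homeobox factors, stood in 2 (Car14 and Otx2, 7.06% of all). The POU octamer ATGCAAAT was matched at 2 places in the window of Pim2 (1.74% of all). A SOX-type ACAAAG stood in the window of Fgf5 (18.7% of all), the forkhead site TGTTTAC in none (3.65% of all), TATAAA in those of Fgf5 and Otx2 (13.6%) and GGGCGG in 4 (35.7%). No searched motif contains another. The part of a window that lies before the first base of the gene in GENCODE is printed for 4 members, 250 bases for Epha2 and Vrtn, 206 for Pim2 and 244 for Car14. For Pim2 and Car14 it stops short of the RefSeq start site. Epha2 and Vrtn are shown for the core of RAR sites, Pim2 and Car14 for sites of the families of Pou3f1 and Otx2. The capitals mark those matches, and a match is only a match of letters.
Epha2, chr4:141300971-141301220, plus strand: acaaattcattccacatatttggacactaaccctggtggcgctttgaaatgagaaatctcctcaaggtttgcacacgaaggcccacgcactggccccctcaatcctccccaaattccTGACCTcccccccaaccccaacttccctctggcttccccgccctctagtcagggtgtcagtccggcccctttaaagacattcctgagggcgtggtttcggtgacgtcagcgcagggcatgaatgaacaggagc
Vrtn, chr12:84640769-84641018, plus strand: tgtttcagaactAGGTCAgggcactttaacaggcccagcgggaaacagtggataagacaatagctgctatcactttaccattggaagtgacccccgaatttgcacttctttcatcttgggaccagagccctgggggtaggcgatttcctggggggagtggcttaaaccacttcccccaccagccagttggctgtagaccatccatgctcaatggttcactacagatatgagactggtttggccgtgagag
Pim2, chrX:7878056-7878261, plus strand: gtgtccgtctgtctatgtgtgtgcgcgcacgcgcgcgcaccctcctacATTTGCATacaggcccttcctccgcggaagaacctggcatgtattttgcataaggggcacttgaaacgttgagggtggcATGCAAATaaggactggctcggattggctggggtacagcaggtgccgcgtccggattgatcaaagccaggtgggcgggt
Car14, chr3:95904692-95904935, minus strand: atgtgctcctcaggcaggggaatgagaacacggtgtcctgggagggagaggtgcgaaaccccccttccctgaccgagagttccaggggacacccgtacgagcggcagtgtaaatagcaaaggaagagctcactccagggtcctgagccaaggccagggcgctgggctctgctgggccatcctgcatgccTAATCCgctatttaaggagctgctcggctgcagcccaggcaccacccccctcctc

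Total counts per library lay between 17298632 and 39688686, and CPM here means a count scaled to the size of its library. The smallest amount taken here as detected, 3 counts, is 0.0756 to 0.173 CPM, a floor that covers counting error only. Of the 45 libraries, 6 stood apart in 4 genes of the Y chromosome. At 8 h this was RA replicate 3, and at 30 h all 3 untreated ones with RA replicates 1 and 3. The mean of these genes was 1.22 to 3.73 CPM there and 22.6 to 89.9 CPM in the other 39. Results at 8 h are therefore also given without RA replicate 3, which cannot be done at 30 h, where the whole untreated group belongs to these libraries. Library numbers in the titles fell into an earlier series of 29 and a later one of 16. The later series holds day 2 replicate 3, RA 30 h replicates 2 and 3, untreated 54 h replicate 3 and all libraries of 66 h and 78 h. Cyp26a1, Rarb, Dhrs3 and Stra8, genes known to respond directly to RA, were called higher with RA at 8 h, where 1.26% of tested genes were, and at 42 h. The counting did not state a strand setting in the sources used here, and Car14 shares 445 exon bases with Aph1a on the opposite strand, which reached 890 counts. The other genes that overlap a member's exons held at most 50 counts in any library. In bulk RNA, fewer cells that hold an mRNA and less of it per cell cannot be told apart.

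**Figure D1:**
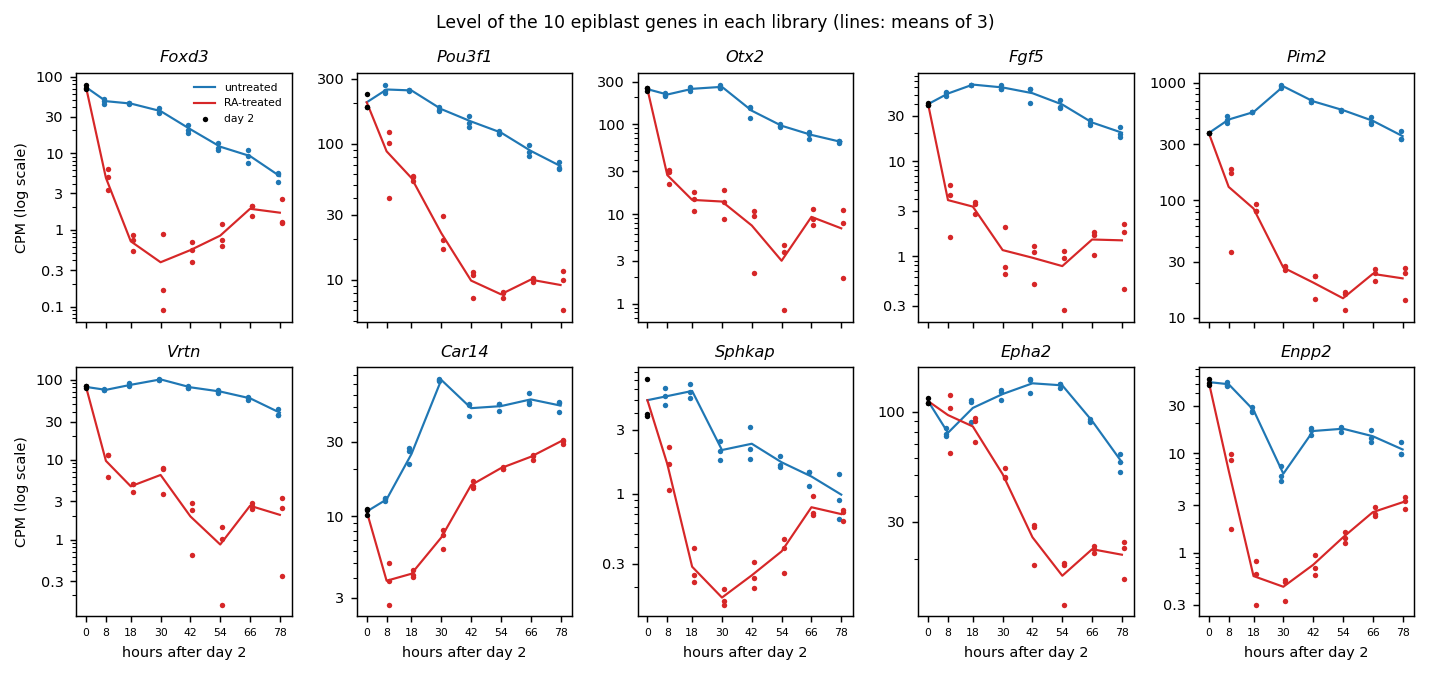
Level in CPM (log scale) of each of the 10 genes by hours after day 2, with a point for each library, black for day 2, blue for untreated and red for RA-treated organoids, and lines through the means of 3 libraries. With RA 9 of 10 means lie under 50% of day 2 at 8 h, all but Epha2. From 30 h Epha2 lies under it and Car14 no longer does, and Car14 ends above day 2 in both arms.

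At day 2, before any treatment, Pim2 had the highest level per length, 133 CPM per kb of exon, followed by Otx2 with 58.6 and Pou3f1 with 52.5 CPM per kb. The level was 31.4 CPM per kb for Foxd3, 24 for Epha2, 22.5 for Vrtn, 16 for Fgf5, 8.94 for Enpp2 and 4.21 for Car14, and Sphkap was lowest with 0.516 CPM per kb. Day 2 replicates were close for most members, with 371, 376 and 372 CPM for Pim2 and 39.6, 41.3 and 39.2 CPM for Fgf5. Sphkap was the least even, with 3.78, 3.92 and 7.17 CPM, and its share of day 2 is the least certain of the 10. Pou3f1 was uneven to a smaller degree, with 188, 186 and 232 CPM. In both, the highest was replicate 3, the only day 2 library of the later series.

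Without RA the members left their day 2 level one after another, and at 18 h their means lay between 52.5% and 233% of it. A gene was called where edgeR's quasi-likelihood test gave an adjusted p under 0.01 (Benjamini-Hochberg) and the log2 fold change passed 1 in either direction. At 8 h 0 of the 10 were called against day 2 by edgeR or by DESeq2, while 7 had an unadjusted p under 0.05 with edgeR. Of the 7, Epha2, Foxd3, Pim2 and Fgf5 also had an adjusted p under 0.01 with edgeR. They missed the call on fold size, with log2 fold changes of -0.48, -0.59, 0.40 and 0.39. Of 15634 genes, 0.179% were called lower and 0.409% higher. At 42 h 3 members were called lower, Foxd3, Sphkap and Enpp2, where 8.56% of all tested genes were. Otx2 was added at 54 h (4 of 10, against 11%), Pou3f1 at 66 h (5 of 10, against 12.6%) and Vrtn at 78 h (6 of 10, against 13.6%). Foxd3 went furthest, from 71.3, 68.3 and 79 CPM at day 2 to 5.31, 5.56 and 4.23 CPM at 78 h. This was -3.82 ± 0.10 (SE) on the log2 scale, with an adjusted p of 5.49e-15. Otx2 held 253, 278 and 254 CPM at 30 h and fell to 65.2, 64.5 and 61.4 CPM at 78 h (-1.91 ± 0.06 against day 2, adjusted p = 2.76e-14). Pou3f1 fell to 65.4, 73.8 and 66.2 CPM (-1.52 ± 0.08, adjusted p = 3.9e-11). The groups at day 2 and at 78 h did not overlap for these 3 factors of the epiblast. Vrtn lay close to the threshold at 78 h, with -1.03 ± 0.07, and lost the call without untreated replicate 1 or 3 (-0.974 in both), with no filter (-0.981) and with library series as a term (-0.998). Sphkap at 42 h (-1.04 ± 0.27) lost it without day 2 replicate 3 (-0.656) or untreated replicate 1 (-0.971) or 2 (-0.875), and with library series as a term (-0.906).

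Of the other members, Car14 alone was called higher than at day 2 without RA from 42 h to 78 h. It was so at each of these hours, where 13.2%, 15%, 18.2% and 20.3% of tested genes were called higher. Its libraries held 11.1, 10.2 and 10.9 CPM at day 2 and 51.8, 43.7 and 52 CPM at 42 h (2.23 ± 0.09 on the log2 scale, adjusted p = 2.63e-11). Pim2 held 932, 964 and 894 CPM at 30 h, 249% of day 2 and 1.35 ± 0.05 above it on the log2 scale, past the fold threshold, as a description. All untreated libraries of 30 h stood apart in the Y genes, and the part of that in this level was not tested. Pim2 lay at 694 ± 17.6 CPM (SD) at 42 h, 0.93 ± 0.06 above day 2 on the log2 scale and under the fold threshold. It lay at 351 ± 30.7 CPM at 78 h. Fgf5, at 64.2 ± 0.11 CPM at 18 h, was at 20 ± 2.43 CPM at 78 h, and its difference of -0.95 ± 0.08 from day 2 fell just short of the threshold. Epha2 had -0.92 ± 0.07 at 78 h and likewise missed it. The comparisons at 66 h and 78 h set 3 libraries of the later series against a day 2 group that holds 1 such library.

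After 8 h of RA, Foxd3, Otx2, Fgf5, Vrtn and Car14 were called lower than in untreated organoids of the same hour, which is 5 of the 9 members tested, where 0.537% of 15836 genes were called lower. Enpp2 was not tested against untreated organoids at any hour, because its fall at all 7 was known when it was chosen. Foxd3 was at 47.6, 44.3 and 51.7 CPM without RA and 4.87, 6.19 and 3.28 CPM with it, -3.30 ± 0.20 on the log2 scale (adjusted p = 0.000211). Otx2 was at 211, 208 and 226 CPM without and 31.2, 29.2 and 21.4 CPM with RA (-2.96 ± 0.14, adjusted p = 8.48e-05). Vrtn was at 76.8, 73.7 and 73.7 against 11.5, 11.4 and 6.11 CPM (-2.92 ± 0.22, adjusted p = 0.000443). In each of these the highest RA-treated library lay far under the lowest untreated one. Fgf5 had 54, 48.4 and 52.6 CPM without RA and 4.46, 5.64 and 1.58 CPM with it (-3.69 ± 0.35, adjusted p = 0.00107). Car14 had 12.8, 13.1 and 12.5 against 5, 3.82 and 2.71 CPM (-1.71 ± 0.22, adjusted p = 0.00418).

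The 8 h RA libraries were uneven. Replicate 3, which stood apart in the Y genes, was the lowest of the 3 for all 10 members, with a summed level of 178 CPM against 460 and 478 CPM in replicates 1 and 2. Whether this bears on the calls was not tested beyond leaving it out. Pim2 showed the widest gap, with 169 and 185 CPM in replicates 1 and 2 and 36.6 CPM in replicate 3, against 483, 457 and 517 CPM without RA (-1.88 ± 0.51, adjusted p = 0.0565). Pou3f1 had 102, 122 and 39.8 CPM against 246, 235 and 273 CPM (-1.50 ± 0.35, adjusted p = 0.0379). Neither was called with all 3 libraries, nor was Sphkap (-1.65 ± 0.28, adjusted p = 0.0127). Without replicate 3 the spread was smaller and 8 of the 9 tested members were called lower. Pim2 then had -1.44 ± 0.07 (adjusted p = 2.7e-10), Pou3f1 -1.15 ± 0.08 (adjusted p = 1.7e-08) and Sphkap -1.44 ± 0.21 (adjusted p = 6.5e-05). Conversely, without untreated replicate 1 or 3 only 3 were called, Foxd3, Otx2 and Vrtn (Fgf5 then had an adjusted p of 0.012 and 0.016, and Car14 of 0.032 and 0.034). Car14 also lost the call without RA replicate 2 (adjusted p = 0.02) or untreated replicate 2 (adjusted p = 0.031).

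Epha2 was the only tested member whose log2 fold change with RA was above 0 at 8 h. Its RA-treated libraries held 120, 104 and 63.9 CPM and its untreated libraries 76.3, 83.2 and 78.5 CPM, and the groups overlapped (log2 fold change 0.30 ± 0.21, adjusted p = 0.393). Without RA replicate 3 the log2 fold change was 0.51 ± 0.07, with an adjusted p of 5.5e-05 and under the fold threshold.

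**Figure D2:**
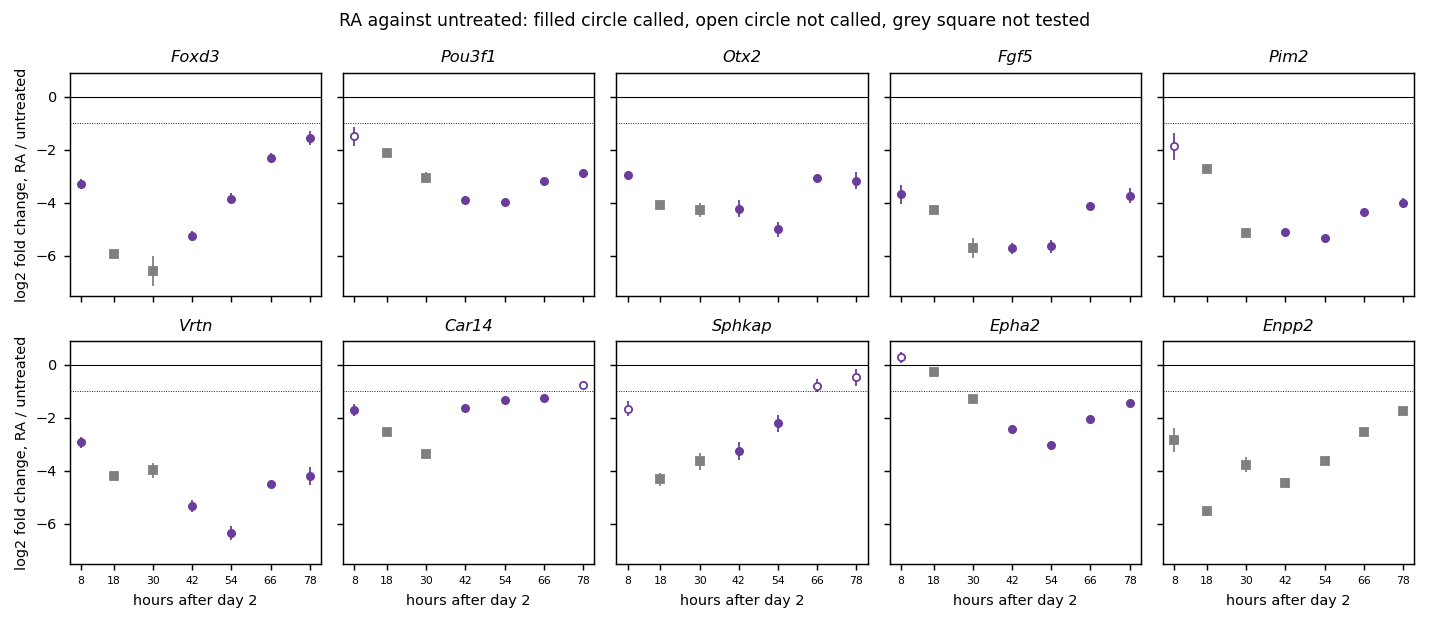
Log2 fold change of RA-treated over untreated organoids (y axis) by hours after day 2 for each gene, with the SE as bars; filled circles were called, open circles were tested and not called, and grey squares are shown as a description with no test. The dotted line marks the fold threshold, and the values of Foxd3, Sphkap and Car14 come back toward 0 by 78 h.

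At 18 h and 30 h the RA response had chosen the members, and the values are given as a description. The log2 fold changes had a median of -4.15 over the 10 at 18 h, from -5.95 for Foxd3 to -0.28 for Epha2. At 30 h the median was -3.87, from -6.56 for Foxd3 to -1.27 for Epha2. Over all tested genes the median was 0.0227 at 18 h. Past the same thresholds lay 9 members at 18 h and 10 at 30 h, where 2.76% and 2.48% of tested genes did. Foxd3 was at 45.2, 43.9 and 44.9 CPM without RA at 18 h and at 0.528, 0.739 and 0.866 CPM with it. At 30 h its RA-treated libraries held 0.164, 0.885 and 0.0893 CPM, the lowest of which is 3 counts, at the detection floor. Enpp2 was at 25.8, 26.4 and 29.2 CPM without and 0.835, 0.616 and 0.303 CPM with RA at 18 h. Nearest to the fold threshold on either side were Epha2 at 18 h, which did not reach it with -0.28 ± 0.10, and Epha2 at 30 h, which passed it with -1.27 ± 0.10.

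From 42 h on, in libraries other than those that chose them, the members remained low with RA. At 42 h and at 54 h all 9 tested members were called lower, where 4.96% and 5.99% of all tested genes were. These calls were made under each of the 6 alternatives and with each library left out. All libraries of 42 h are of the earlier series, so the series term could not move the fold changes of that hour. At 66 h 8 of the 9 were called (4.44% of all genes) and at 78 h 7 of the 9 (4.03%). The median log2 fold change over these 9 genes was -4.23 at 42 h, -3.97 at 54 h, -3.06 at 66 h and -2.90 at 78 h, and over all tested genes it was 0.0112 at 42 h and 0.0015 at 78 h. Vrtn showed the strongest response, at 73.4, 71.2 and 69.1 CPM without RA and 0.154, 1.02 and 1.44 CPM with it at 54 h (-6.35 ± 0.26, adjusted p = 1.81e-08). Pim2 kept a wide gap to the end, with 333, 387 and 334 CPM against 26.8, 23.9 and 14.3 CPM at 78 h (-4.01 ± 0.17, adjusted p = 1.61e-08). Fgf5 did too, with 18, 22.7 and 19.2 against 2.16, 1.8 and 0.454 CPM (-3.73 ± 0.29, adjusted p = 1.64e-06). Epha2, late to respond, was at 135, 129 and 135 CPM without RA at 54 h and 12.2, 18.7 and 19.2 CPM with it, a difference of -3.01 ± 0.13 (adjusted p = 2.53e-08). In none of these did the groups overlap.

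By 78 h the arms had come close for some members. Sphkap was at 1.4, 0.897 and 0.651 CPM without RA and 0.626, 0.748 and 0.734 CPM with it, and the groups overlapped (-0.46 ± 0.32, adjusted p = 0.257). At 66 h it was already short of the thresholds (-0.78 ± 0.24, adjusted p = 0.0199). Car14 was at 46.3, 53.7 and 53.3 CPM without and 29.1, 30.4 and 30.7 CPM with RA, groups that did not overlap but differed by less than the fold threshold (-0.77 ± 0.07, adjusted p = 3.31e-06). Foxd3 was still called, with 5.31, 5.56 and 4.23 CPM against 2.56, 1.26 and 1.22 CPM (-1.55 ± 0.26, adjusted p = 0.000507).

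**Figure D3:**
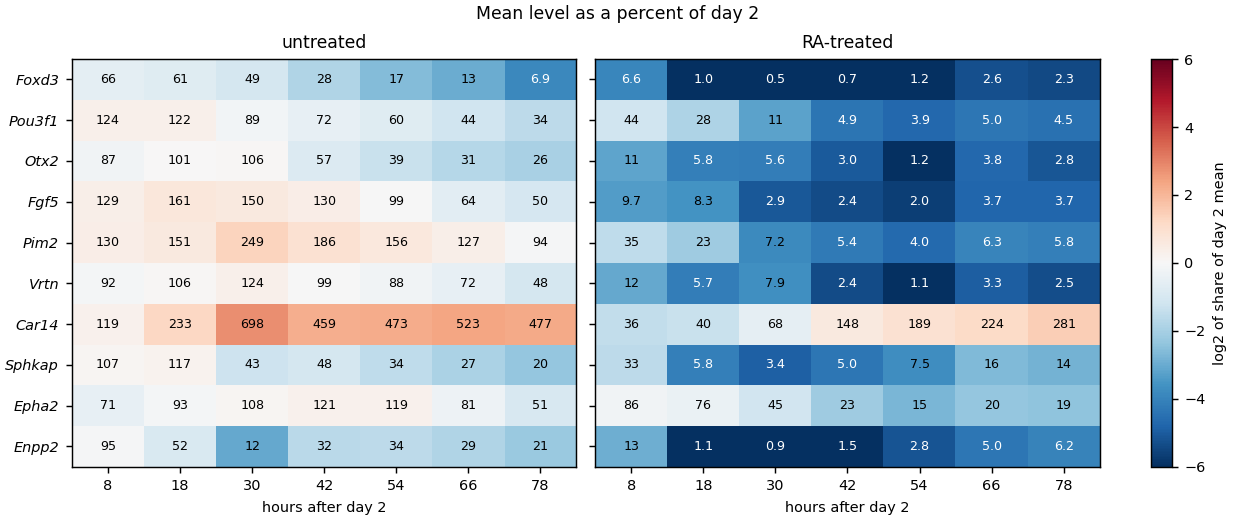
Mean level of each gene as a percent of its day 2 mean (numbers in the cells, colour on a log2 scale) by hours after day 2, untreated on the left and RA-treated on the right. With RA 9 of 10 genes are under 50% from 8 h, while Car14 rises past 100% in both arms and Pim2 does so without RA.

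The time at which a mean went under 50% of its day 2 level is a description, since loss under RA chose the genes. The RA-treated arm crossed earlier for each of the 7 members that crossed in both arms. With RA 9 of 10 means were under 50% at 8 h, the first time sampled, and 8 of these in all 3 libraries. Among 13726 genes of at least 1 CPM at day 2, 4.59% were under 50% in that condition. The count stayed at 9 of 10 up to 78 h, where the share of these genes was 6.78% at 18 h, 13.1% at 30 h, 14.5% at 42 h, 16.6% at 54 h, 15.6% at 66 h and 16.6% at 78 h. From 30 h on Epha2 stood in it, with a log-linear crossing at 27.6 h, and Car14 no longer did. Without RA 0 of 10 were under 50% at 8 h and 18 h (0.51% and 1.87% of the same genes), and 3 at 30 h and 42 h, Foxd3, Sphkap and Enpp2 (11.5% and 10%). Otx2 made 4 at 54 h (12.7%), Pou3f1 made 5 at 66 h (14.2%), and Vrtn and Fgf5 made 7 at 78 h (15.5%). Interpolated crossings without RA were at 18.4 h for Enpp2, 28.1 h for Sphkap, 28.8 h for Foxd3 and 46.3 h for Otx2. Later ones were at 60.9 h for Pou3f1, 76.6 h for Vrtn and 78 h for Fgf5. The crossings of Enpp2, Sphkap and Foxd3 rest on the untreated 30 h libraries, all of which stood apart in the Y genes, and the part of that in these times was not tested. Enpp2 had means of 27.1 CPM at 18 h, 6.22 CPM at 30 h and 16.7 CPM at 42 h, and all 3 genes were under 50% at 42 h. Pim2, Car14 and Epha2 did not reach 50% by 78 h. Just inside lay Fgf5 at 50% and Vrtn at 47.6% of day 2 without RA at 78 h, and just outside Epha2 at 51.3%. Leaving out replicate 3 moved the first untreated time of Sphkap from 30 h to 54 h, and leaving out replicate 1 moved that of Foxd3 from 30 h to 42 h.

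At their lowest point with RA the members differed widely in what was left of them. At 30 h Foxd3 was at 0.52% of day 2, Enpp2 at 0.884% and Sphkap at 3.38%. The Foxd3 mean rests mostly on RA replicate 2, and without it the log2 fold change against untreated organoids went from -6.56 to -8.12. At 54 h Vrtn was at 1.07%, Otx2 at 1.22%, Fgf5 at 1.97%, Pou3f1 at 3.86% and Pim2 at 3.95%. Epha2 kept 14.9% at its lowest, at 54 h. Car14 did not stay low. With RA it was at 35.9% of day 2 at 8 h, 39.8% at 18 h and 68.1% at 30 h. It was then above day 2, at 148%, 189%, 224% and 281% from 42 h to 78 h. For Car14 the name of the set holds only in comparison with untreated organoids, where it stood at 698% of day 2 at 30 h, and against its own day 2 level only up to 30 h. The untreated libraries of 30 h all stood apart in the Y genes, and the part of that in the 698% was not tested.

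The gap between the arms narrowed between 42 h and 78 h, and the arms moved in opposite ways for some members. Without RA 7 of 10 were called lower at 78 h than at 42 h, where 2.97% of tested genes were. These were Foxd3, Pou3f1, Otx2, Fgf5, Vrtn, Sphkap and Epha2, with log2 fold changes from -2.03 ± 0.13 for Foxd3 to -1.04 ± 0.07 for Vrtn. Vrtn lost this call without untreated 78 h replicate 3 (-0.996), and Sphkap without untreated 42 h replicate 3 (adjusted p = 0.029) or untreated 78 h replicate 2 (0.024) or 3 (0.022). With RA 3 passed the thresholds for a rise, Enpp2 among them as a description only, where 4.62% of tested genes did. Enpp2, whose low level with RA at both hours was known when it was chosen, rose from 0.605, 0.96 and 0.713 CPM to 3.33, 3.61 and 2.73 CPM (2.05 ± 0.23). Foxd3 rose from 0.698, 0.384 and 0.555 CPM to 2.56, 1.26 and 1.22 CPM (1.64 ± 0.38, adjusted p = 0.00781), and Sphkap from 0.233, 0.307 and 0.198 CPM to 0.626, 0.748 and 0.734 CPM (1.47 ± 0.34, adjusted p = 0.00796). Of the 6 fits that left out a library, the call of Foxd3 was made in 1, without RA 78 h replicate 3, and that of Sphkap in 0. Enpp2 passed the thresholds in each of them, as a description. Car14 went from 15.8 ± 0.92 to 30.1 ± 0.87 CPM in RA-treated organoids, 0.90 ± 0.07 on the log2 scale and under the fold threshold.

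Tested as an interaction over the 12 libraries, the RA effect was smaller in size at 78 h than at 42 h for 7 of the 9 tested members at an adjusted p under 0.01, where 5.81% of 17647 genes differed in that direction. The difference of the log2 effects was 3.69 ± 0.38 for Foxd3, 2.76 ± 0.50 for Sphkap and 0.86 ± 0.11 for Car14, and these 3 were called in each of the 12 fits that left out a library. The others called, Fgf5, Pim2, Pou3f1 and Epha2, were not. The count lay between 3 and 8 over those fits. It was 3 without RA 78 h replicate 1 or 2 or untreated 78 h replicate 1 or 3, and 4 without RA 42 h replicate 1. Enpp2, whose RA effect at both hours had chosen it, was not tested, and its values differed by 2.67 as a description. Otx2 (1.04 ± 0.55, adjusted p = 0.2) and Vrtn (1.12 ± 0.53, adjusted p = 0.152) did not pass. All libraries of 42 h belong to the earlier series and all of 78 h to the later, so that hour and series cannot be told apart in these comparisons. In one fit of all 45 libraries 5 members passed the interaction, with or without the series as a term. The term is the same for both arms at each of these hours and drops out of this difference. It could therefore not test the part of the series in the interaction. With library series as a term Foxd3 and Sphkap were no longer called higher with RA at 78 h than at 42 h. Without RA, Otx2 (-1.08, adjusted p = 0.049) and Vrtn (-0.943, adjusted p = 0.034) were then no longer called lower.

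**Figure D4:**
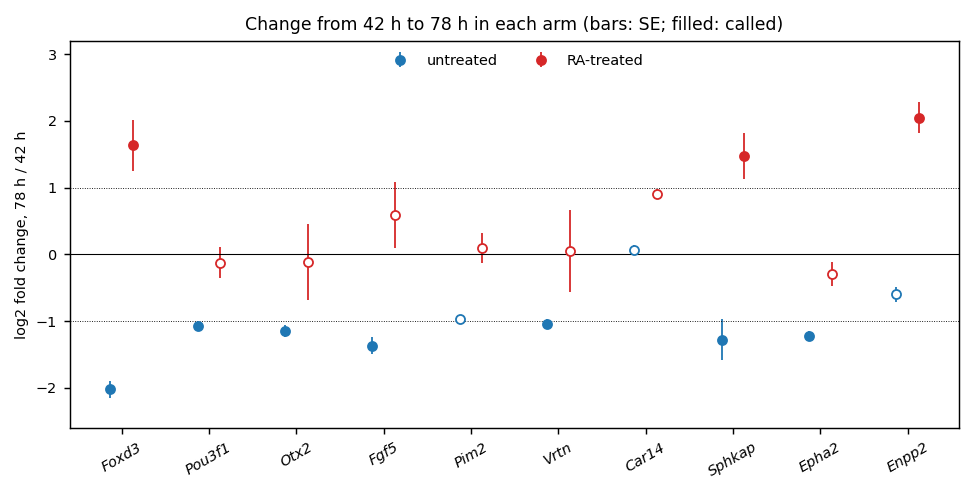
Log2 fold change from 42 h to 78 h (y axis) for each gene, untreated in blue and RA-treated in red, with the SE as bars; filled points were called and dotted lines mark the fold threshold. Untreated values lie under 0 for all genes but Car14, and the RA-treated values of Enpp2, Foxd3 and Sphkap lie above 1. The filled RA-treated point of Enpp2 is a description.

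Within a group of 3 libraries, 1 was often the lowest for most members. With RA 1 library was the lowest for 8 to 10 members at each hour except 30 h, where it was for 4 at most, and without RA for 4 to 8. At 42 h and at 54 h, RA replicate 1 was the lowest for 8 of 10 members. Its summed level was 60.5 CPM at 42 h, against 93.6 and 94.9 CPM in the others, and 55 CPM at 54 h, against 71.8 and 73.7 CPM. At 78 h RA replicate 3 was the lowest for 8 of 10, with 74.4 CPM against 115 and 105, and it held 1.92 CPM of Otx2 where the others held 11 and 7.93 CPM. The same library held 86.5 CPM of Dnmt3b and 6.01 CPM of Lef1, which are no members, where the others held 123 and 117 CPM of Dnmt3b and 16.5 and 15.3 CPM of Lef1. The members of 1 library share its RNA and its size factor, so these counts are a description.

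At 42 h Pou3f1 went the opposite way to the other class III POU genes, and Pim2 to Pim1. Of 15 listed relatives of the members, 14 were tested at 42 h, with a median log2 fold change of 0.47. With RA 5 were called higher (Foxd2, Pim1, Pou3f2, Pou3f3 and Pou3f4) and 4 lower (Car2, Enpp3, Epha1 and Epha4), where 7.49% and 4.96% of tested genes were. Pou3f1 was at 143, 133 and 161 CPM without RA at 42 h and at 7.3, 11.3 and 10.9 CPM with it (-3.88 ± 0.13, adjusted p = 7.74e-09). Pou3f3, a POU factor of the developing nervous system, was at 1.09, 1.61 and 1.13 CPM without and 13.1, 12.5 and 10.8 CPM with RA (3.23 ± 0.17, adjusted p = 1.3e-07). Pou3f2 (Brn2) was at 1.68, 2.72 and 1.68 against 16.9, 11.7 and 10.5 CPM (2.67 ± 0.23, adjusted p = 5e-06). At 78 h Pou3f1 was at 68.5 ± 4.66 CPM without and 9.13 ± 2.89 CPM with RA. Pou3f3 was at 21.4 ± 1.92 CPM without and 152 ± 19.8 CPM with RA at that hour. These are not levels per length, and each gene is compared between arms only.

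Pim1, a kinase of the family of Pim2, was at 40.7, 35.2 and 43.6 CPM without RA at 18 h and at 147, 162 and 170 CPM with it (2.01 ± 0.08, adjusted p = 3.9e-10). It was still called higher at 78 h (1.36 ± 0.06, adjusted p = 2.1e-08). Pim3, the other kinase of the family, was not called at 18 h (0.149 ± 0.055, adjusted p = 0.036) or at 42 h (0.219 ± 0.059, adjusted p = 0.0095). Pim2 was at 560, 565 and 562 CPM without and 80.7, 93.9 and 80.7 CPM with RA at 18 h. Of the ephrin receptors, Epha1 was called lower with RA at 18 h (-1.38 ± 0.06, adjusted p = 1.2e-09), where Epha2 had -0.28, and at 42 h (-3.37 ± 0.10, adjusted p = 2.9e-09). Epha4 was called lower at 42 h (-1.15 ± 0.11, adjusted p = 1.4e-05) and had 0.575 ± 0.078 at 18 h. Epha7 was called higher at 18 h (2.20 ± 0.10, adjusted p = 2.2e-09) and lower at 78 h (-1.42 ± 0.11, adjusted p = 2.1e-06). Foxd2, at 1.65 ± 0.75 CPM with RA at 42 h and 0.16 ± 0.11 CPM without, and Foxd1, called higher at 78 h (3.61 ± 0.41, adjusted p = 3.1e-05), are forkhead genes beside Foxd3. Otx1, the relative of Otx2, had means of 0.154 to 0.275 CPM in both arms at 42 h and 78 h and at day 2.

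**Figure D5:**
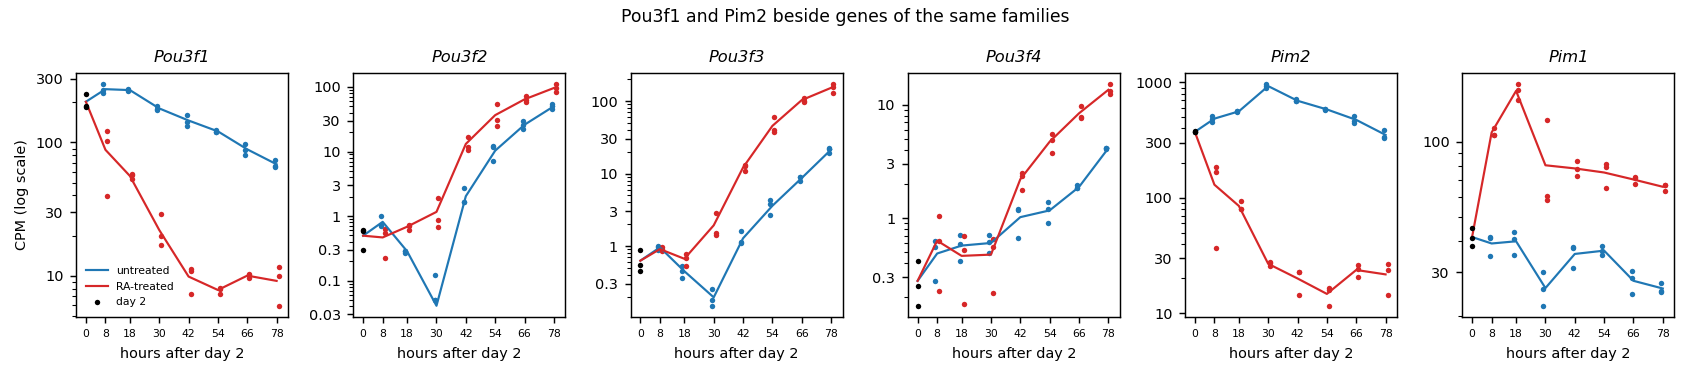
Level in CPM (log scale) by hours after day 2 of Pou3f1 beside Pou3f2, Pou3f3 and Pou3f4, and of Pim2 beside Pim1, with points for libraries and lines for means; values under 0.05 CPM are drawn at 0.05, as 2 untreated libraries of Pou3f2 at 30 h. RA-treated values lie below untreated ones for Pou3f1 and Pim2 and above them for the others at 42 h.

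The partners of the ligands and enzymes among the members changed in both directions. Of 14 receptors and ligands, 5 were called higher with RA at 42 h (Fgfr2, Fgfr3, Fgfr4, Lpar1 and Lpar3) and 1 lower (Lpar4), where 7.49% and 4.96% of tested genes were, with a median of 0.60. For Fgf5, whose main receptor is Fgfr1, the means of Fgfr1 at 42 h were 246 ± 15.5 CPM without and 241 ± 8.62 CPM with RA, while Fgfr2 had 44.7 ± 2.54 against 133 ± 9.52 CPM (1.56 ± 0.07, adjusted p = 2.6e-08). For Enpp2, the lysophosphatidic acid receptor Lpar4 was at 86.6 ± 16 CPM without and 22.3 ± 3.48 CPM with RA (-1.96 ± 0.15, adjusted p = 1.8e-06). Lpar1 was at 11.6 ± 0.40 against 23.8 ± 0.57 CPM (1.02 ± 0.08, adjusted p = 1.6e-06). At 78 h 2 of the 14 were called higher, Fgfr2 and Lpar3, and Lpar4 lower, counts near the 7.66% and 4.03% of all tested genes.

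Other genes of the formative and primed epiblast, 16 in a list chosen with earlier results known, went the way of the members. At 8 h 3 were called lower with RA (Dnmt3b, Grhl2 and Lef1), where 0.537% of tested genes were. At 42 h 15 of 16 were (4.96% of tested genes), with a median log2 fold change of -1.75. At 78 h Dnmt3b, Fgf8, Lef1 and Zic2 were called lower (4.03% of tested genes). Dnmt3b, the DNA methyltransferase that rises in the epiblast, was at 2003, 1819 and 2021 CPM without RA at 18 h and at 229, 250 and 252 CPM with it (-2.99 ± 0.06, adjusted p = 1.3e-12). Without RA 10 of the 16 were called lower at 78 h than at day 2 and 2 higher, where 13.6% and 20.3% of tested genes were. Of 12 naive pluripotency genes 1 was called higher at 42 h, Tbx3 (2.97 ± 0.14, adjusted p = 6.5e-08), and 1 lower, Fgf4 (-2.88 ± 0.17, adjusted p = 3.4e-07), with a median of 0.0255. These counts are near the 7.49% and 4.96% of all tested genes. Nanog, of the naive list, held 95.9 ± 1.24 CPM without and 90.2 ± 18.1 CPM with RA at 42 h. Of 5 genes shared by both states, Pou5f1 (Oct4) was called lower at 42 h, from 576 ± 37.3 CPM to 70.6 ± 12.5 CPM (-3.04 ± 0.12, adjusted p = 1.8e-08).

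Markers of other cell types moved with RA in the same libraries, and their part in the members' values was not tested. Over all tested genes 7.49% were called higher with RA at 42 h and 4.96% lower, and these shares stand beside each list at that hour. At 42 h 3 of 7 neural progenitor markers were called higher (Pax6, Hes5 and Irx3) and 1 lower (Fabp7), with summed levels of 305 to 402 CPM without and 642 to 774 CPM with RA. Of the 9 forebrain and midbrain markers listed, Lhx2 and Emx2 were called higher at 42 h, with low sums of 6.29 to 7.73 CPM without and 9.51 to 10.2 CPM with RA. Of 7 neural crest markers, which bear on Foxd3, only Ednrb was called at 42 h, higher, and 4 were at 78 h (Ednrb, Snai2, Tfap2a and Tfap2b), where 7.66% of tested genes were called higher, with sums at 78 h of 82.3 to 86.1 CPM without and 179 to 214 CPM with RA. Of 5 endoderm markers tested, among 7, 4 were higher at 42 h (Sox17, Gata6, Foxa2 and Dab2), with sums of 12.4 to 14.2 and 54.4 to 56.5 CPM. Of 4 mesoderm markers tested, among 6, 2 were lower (T and Eomes), with sums of 12.1 to 16.3 and 4.64 to 7.29 CPM. Of 6 neuron markers 1 was lower at 42 h (Stmn2), with sums at that hour of 242 to 283 and 113 to 123 CPM. At 78 h 4 of them were higher and 1 lower, where 7.66% and 4.03% of tested genes were. At 42 h 1 mesoderm marker without RA and 2 with RA lay under 0.1 CPM in all 3 libraries, and no marker of the other lists did.

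Over the means of the 15 populations, on the scale log2(CPM + 1), the members' profiles were alike except for Car14. Among the 45 pairs the Pearson correlation ran from 0.104 to 0.983 with a median of 0.862, highest for Otx2 and Vrtn, and Car14 was the least like of the 10 for each of the other 9. The member most like Foxd3 was Sphkap (0.958), and the one most like Pou3f1 was Otx2 (0.960). Fgf5 and Pim2 were each most like Vrtn (0.981 and 0.978), Epha2 was most like Pou3f1 (0.930) and Enpp2 most like Sphkap (0.925). Among 14317 genes of at least 1 CPM, the genes outside the set with the highest correlation to the members' mean standardized profile were Dnmt3b (0.989), Foxo1 (0.984), Sptb (0.982), Fam196b (0.980) and Adi1 (0.978). Car14 itself ranked 4345 (0.422). The points share libraries and describe the shape of the time courses only. Adi1, for instance, had 67.4 CPM without and 47.3 CPM with RA at 18 h.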

How the data were processed

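RNAseq counts per gene for 45 libraries were used as deposited. The authors trimmed reads with Trim Galore 0.5.0, removed abundant sequences with Bowtie2 2.3.4.1, aligned the rest to GRCm38 with STAR and deposited raw counts from featureCounts (Subread 1.6.2), with no normalization or pooling; a strand setting is not given in the sources used here. Libraries were normalized by TMM, low genes removed by filterByExpr (minimum count 10, total 15), and each comparison fitted on its own libraries with edgeR 4.0.16 (R 4.3.3) glmQLFit and glmQLFTest, two-sided, adjusted by Benjamini-Hochberg over all tested genes. The SE is the log2 fold change divided by the square root of F. Levels are CPM after TMM over all 45 libraries; positions are from GENCODE M21, promoters from RefSeq.

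The members, lists and tests were chosen with earlier results of these data known. Named genes were the members, list and marker genes called or at an extreme, and the most alike profiles; Aph1a, Nanog, Fgfr1, Otx1, Pim3 and Epha7 were named after their values were seen. Alternatives were RLE size factors, no filter, DESeq2 1.42.0, one fit of 45 libraries, library series as a term, the replicate number as a block, one library left out, and other ways to set 50% of day 2. On simulated counts with 200 changed genes the tests were checked. No replicate pair agreed within sampling noise (mean chi-square per gene at least 1.92 over 45 pairs). Images of organoids were not analysed here. A few genes of the lists are not reported here.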

Additional observations from a re-analysis of the deposited data

Results flagged for a closer look

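The response to RA was not the same size at 42 h and at 78 h for 7 of 9 tested members, by the interaction term of edgeR at an adjusted p under 0.01, as a difference of log2 fold changes: 3.69 for Foxd3, 2.76 for Sphkap, 1.98 for Fgf5, 1.08 for Pim2, 0.97 for Pou3f1, 0.95 for Epha2 and 0.86 for Car14. Only Foxd3, Sphkap and Car14 were called in every fit that left out a library. The hour and the series of libraries cannot be told apart in this comparison.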

How the results depend on the processing

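Of the counts and medians under other settings, 167 of 177 were labelled as kept without a library left out and 143 of 156 with one. The label allowed for modest changes, so that 5 members by the interaction instead of 7 was labelled as kept. No single member's log2 fold change of at least 0.3 in size, or called, changed sign under any setting tried. The members called lower with RA at 8 h were 8 in one fit of all 45 libraries, 8 with library series as a term and 8 with no filter, and 3 to 8 with a library left out. All libraries of 8 h belong to the earlier series, so the series term could not move the fold changes of that fit. The same holds for RA against untreated at 42 h, 66 h and 78 h and for the interaction. Those called higher with RA at 78 h than at 42 h were 1 with library series as a term and 1 to 2 with a library left out, and the interaction was called for 3 to 8. Enpp2 is in every count of members higher with RA at 78 h, as a description. Under 0.25 of day 2 lay 5 with RA at 8 h and, without RA, 1 at 30 h, 0 at 42 h, 1 at 54 h, 1 at 66 h and 3 at 78 h. The cause was not tested. Equal replicate numbers gave no sign of pairing, with mean correlations of deviations between -0.097 and 0.106 and no comparison with all 3 pairs over 0.1; with the replicate number as a block, 4 members were called at 8 h, 2 higher with RA at 78 h, and 5 by the interaction. Over all genes the block took the calls at 8 h from 200 higher and 85 lower to 90 and 35. The earlier series alone at 30 h, added after the data were seen, gave the median -3.98, with only 1 RA-treated library. With 3 libraries a group, levels under about 1 CPM rest on few counts.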
